A study of Homo sapiens with 8 samples.

Results

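Angiomotins and other junction-associated regulators of the co-activators YAP1 and TAZ were followed at the RNA level in a human cardiomyocyte line under changing glucose. The set holds 9 genes of the 19479 listed: the angiomotins AMOT, AMOTL1 and AMOTL2, the phosphatase PTPN14, the LIM-domain proteins AJUBA and LIMD1, and the kinases TAOK1, TAOK2 and TAOK3. They were picked by symbol, and all 9 were found under the same Entrez number in both tables of the study, 1 for each starting glucose. RNA came from AC16 cells, a proliferating line that arose from the fusion of ventricular cardiomyocytes of an adult heart with transformed fibroblasts, and the study asks how YAP1/TAZ signalling and the ERK pathway behave in high glucose. The values are RPKM, read numbers divided by the gene's length and by the depth of the library.

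Each of the 4 groups has 2 libraries. The 25 to 50 mM group (replicates 2 and 3) came from cells maintained at 25 mM glucose that then received a further 25 mM for 24 h. The 25 mM group (replicates 1 and 3) stayed at 25 mM. The 5 to 50 mM group (replicates 1 and 2) came from cells maintained at 5 mM that received a further 45 mM for 24 h, and the 5 mM group (replicates 1 and 3) stayed at 5 mM. All groups had a first culture of 24 h, which in the 50 mM groups came before the 24 h of the rise. No further time is given for the 25 mM and 5 mM groups. Time in culture may thus differ along with the rise, and these cannot be told apart. All cells had grown for at least 3 passages at their maintenance glucose, in medium with serum, and none of the 8 libraries comes from cells given an ERK inhibitor or an osmotic control. The series describes its replicates as technical, so p-values measure only the spread between these libraries.

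As background, the kinases MST1 and MST2 activate LATS1 and LATS2, which phosphorylate YAP1 and TAZ and keep them out of the nucleus. Unphosphorylated YAP1 and TAZ act with TEAD factors at target promoters. Angiomotins bind YAP1 and TAZ directly and hold them at junctions and actin, PTPN14 does so through its PPxY motifs, and the TAO kinases act upstream of the MST kinases. AJUBA and LIMD1 bind LATS kinases at tensed junctions and hold them back, so by their known role these members favour YAP1 and TAZ rather than restrain them. AMOTL2 and PTPN14 are themselves among the genes used as a YAP1/TAZ target signature.

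Library totals lay between 21538898 and 27372851 reads, and upper quartiles of RPKM differed by at most 1.061 times. Defining cardiomyocyte genes were mostly absent from the line: 10 of 12 markers were below 1 RPKM in all 8 libraries, MYL2 and NKX2-5 were at 0 in all of them, and only GATA4 averaged at least 1 RPKM. All 10 fibroblast markers averaged at least 1 RPKM. Of 6 endothelial markers only TEK did so, with CDH5 at 0 throughout, and of 6 epithelial markers KRT8, KRT18 and KRT19 did. In bulk RNA, fewer cells of a kind and less RNA per cell cannot be told apart.

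All 9 genes were expressed in every group. Averaged over the 8 libraries, AMOTL2 had the highest level at 50.7 RPKM, followed by PTPN14 at 37.2, AJUBA at 35.8, TAOK3 at 28.2, TAOK2 at 24.5, AMOTL1 at 18.0, TAOK1 at 16.7, LIMD1 at 11.02 and AMOT at 2.79 RPKM. Some neighbours in this order changed places between libraries. PTPN14 was above AJUBA in 4 of 8 libraries, AMOTL1 above TAOK1 in 6 and TAOK3 above TAOK2 in 7, while each other gene was above the next in all 8. AMOT, the founding member of its family, rested on 193 to 249 reads per library, and its values are the least precise of the 9.

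**Figure D1:**
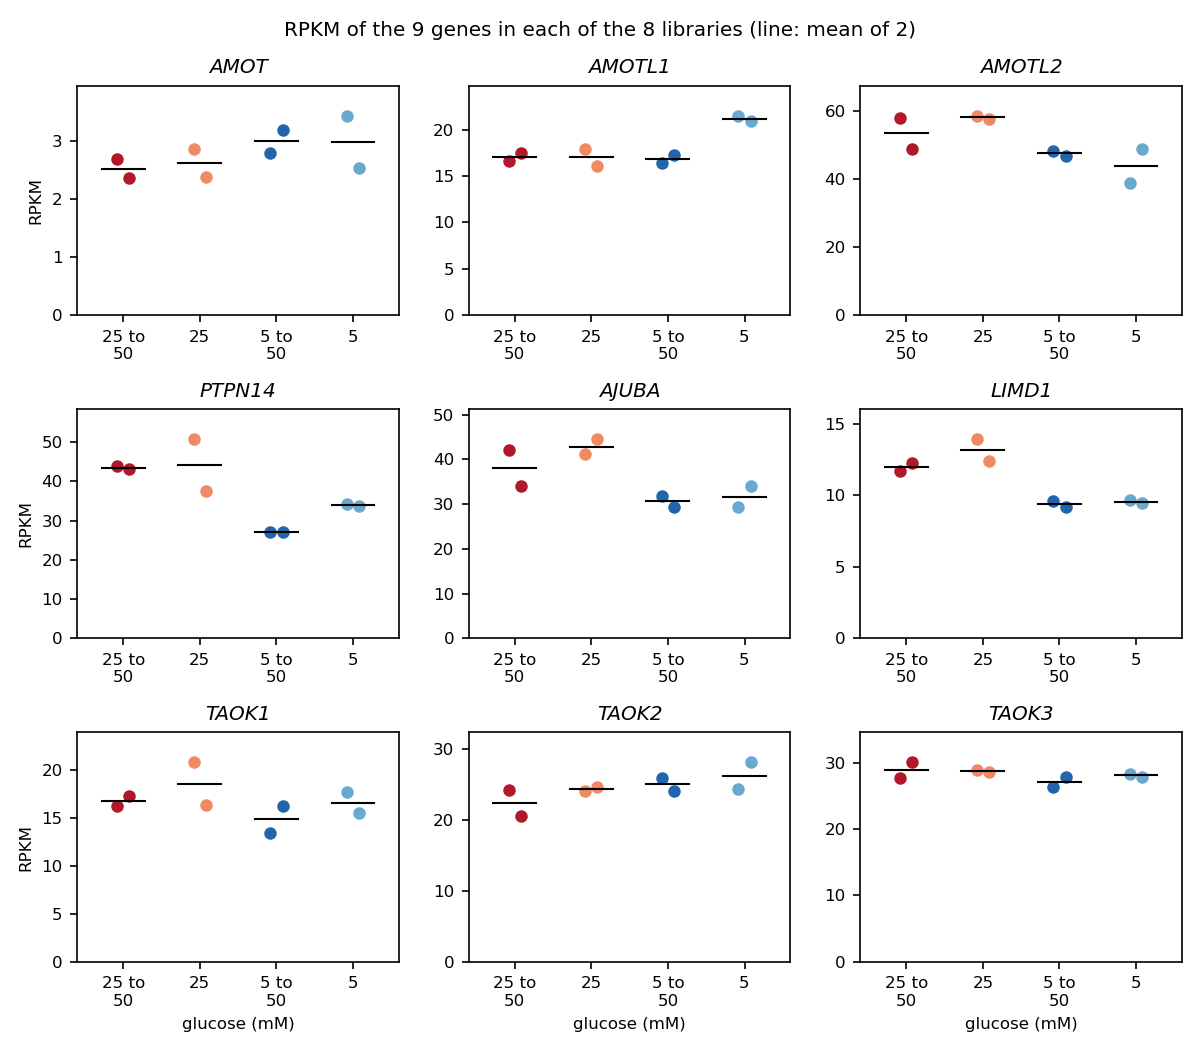
RPKM of the 9 genes in each of the 8 libraries. Points are libraries, lines are group means of 2 libraries, and each panel has its own linear axis from 0. LIMD1 and PTPN14 stand higher in the 4 libraries of cells maintained at 25 mM than in the 4 of cells maintained at 5 mM. How many of all genes separate in this way was not counted. The highest group mean over the lowest is 1.07 for TAOK3, 1.17 for TAOK2 and 1.25 for TAOK1.

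Maintenance glucose separated 5 of the 9 genes. LIMD1, AJUBA, AMOTL2 and PTPN14 were higher at 25 mM than at 5 mM by 1.28 to 1.35 times, AMOTL1 was lower at 0.81 times its 5 mM level, and AMOT and the 3 TAO kinases did not pass the test. These 4 higher and 1 lower of 9 genes stand against a background in which 39.1% of the 11941 genes tested passed, 17% higher and 22.1% lower. The median log2 change of the 9 was 0.15, beside -0.0040 over all genes tested.

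LIMD1, a scaffold that can hold LATS kinases inactive, had 13.9 and 12.4 RPKM in the 25 mM libraries, against 9.65 and 9.46 RPKM in the 5 mM libraries. The groups did not overlap, and the log2 change was 0.42 (SE 0.08, adjusted p = 0.00428, limma with Benjamini-Hochberg adjustment). LIMD1 passed in 15 of 15 other fits, each with 1 choice changed or 1 library left out. In these tallies, here and below, a fit that leaves out a library outside the groups compared keeps the log2 change and alters only the spread. The LIMD1 gene lies on chromosome 3 at 45594751 to 45686341 in hg38, by RefSeq's annotation.

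AJUBA, its relative at adherens junctions, had 41.2 and 44.5 RPKM in the 25 mM libraries, against 29.3 and 34.0 RPKM in the 5 mM libraries, again without overlap. Its log2 change was 0.43 (SE 0.11, adjusted p = 0.0194), and it passed in 11 of 15 other fits. The gene lies on chromosome 14 at 22971177 to 22982551.

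AMOTL2, the most abundant angiomotin here, had 58.5 and 57.6 RPKM in the 25 mM libraries, against 38.9 and 48.7 RPKM in the 5 mM libraries. The 25 mM libraries were nearly level and both above the 5 mM pair, whose members lay 1.25 times apart. Its log2 change was 0.41 (SE 0.11, adjusted p = 0.0236), and this call too held in 11 of 15. The gene lies on chromosome 3 at 134355345 to 134375417.

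PTPN14, the YAP1-binding phosphatase, had 50.8 and 37.6 RPKM in the 25 mM libraries, against 34.4 and 33.8 RPKM in the 5 mM libraries. The lower 25 mM library was still above both 5 mM libraries. Its log2 change of 0.35 (SE 0.12) was just inside the threshold at an adjusted p of 0.04995, and the call held in 3 of 15 other fits. The gene lies on chromosome 1 at 214348700 to 214551602.

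AMOTL1 went the other way from its relative AMOTL2. It had 17.9 and 16.1 RPKM in the 25 mM libraries, against 21.5 and 20.9 RPKM in the 5 mM libraries, with no overlap. The log2 change was -0.30 (SE 0.07, adjusted p = 0.0134), and it passed in 13 of 15 other fits. The gene lies on chromosome 11 at 94706460 to 94876748.

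AMOT and the TAO kinases, which activate the MST kinases, showed changes within their error. AMOT averaged 2.62 ± 0.349 RPKM at 25 mM and 2.99 ± 0.637 at 5 mM (SD, n = 2 each; adjusted p = 0.477, limma). TAOK1 averaged 18.5 ± 3.16 RPKM at 25 mM and 16.6 ± 1.52 at 5 mM, and TAOK2 averaged 24.4 ± 0.347 at 25 mM and 26.3 ± 2.68 at 5 mM. TAOK3 averaged 28.8 ± 0.213 RPKM at 25 mM and 28.1 ± 0.289 at 5 mM. The 95% interval of the log2 change ran from -0.16 to 0.45 for TAOK1, from -0.33 to 0.13 for TAOK2 and from -0.11 to 0.18 for TAOK3. AMOT lies on chromosome X at 112774877 to 112840831, TAOK1 on chromosome 17 at 29390363 to 29551903, TAOK2 on chromosome 16 at 29973868 to 29992261 and TAOK3 on chromosome 12 at 118149801 to 118372907. Groups did not overlap for 5 genes higher at 25 mM, which are the 4 above and TAOK3, and for 1 lower, AMOTL1. Over all genes tested these shares were 32.4% and 35.3%.

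Single libraries carried part of these changes. With 1 library left out, the log2 change ran from 0.34 to 0.50 for LIMD1 and from 0.33 to 0.53 for AJUBA. It ran from 0.25 to 0.57 for AMOTL2, from 0.14 to 0.56 for PTPN14 and from -0.38 to -0.23 for AMOTL1. Where a fit leaves 1 library in a group, that group is assumed to vary like the others. How many of the 9 and of all genes passed with 1 library left out is given at the end. Markers of other cell types moved in both directions. The 10 fibroblast markers summed to 3068 to 3121 RPKM in the 25 mM libraries and 2323 to 2508 RPKM in the 5 mM libraries. COL1A1 made up most of the difference, with a mean of 1525 RPKM at 25 mM and 1058 at 5 mM, while FAP had 46.1 RPKM at 25 mM and 97.0 at 5 mM, S100A4 28.4 at 25 mM and 60.8 at 5 mM, and PDGFRA 2.24 at 25 mM and 3.86 at 5 mM. The 6 epithelial markers summed to 171.6 to 185.9 RPKM in the 25 mM libraries and 207.9 to 216.7 RPKM in the 5 mM libraries. KRT18 made up most of this, with a mean of 157.0 RPKM at 25 mM and 189.2 at 5 mM. CDH1 and CLDN4, both below 1 RPKM, went the other way. The 12 cardiomyocyte markers summed to 0.749 to 1.93 RPKM in the 25 mM libraries and 3.70 to 4.23 RPKM in the 5 mM libraries. Most of this was GATA4, with a mean of 0.417 RPKM at 25 mM and 3.04 at 5 mM. TNNT2, MYH6, MYL7 and PLN, all below 1 RPKM, went the other way. The part of these markers in the result was not tested, and maintenance glucose cannot be told apart from the separate histories of the cultures.

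**Figure D2:**
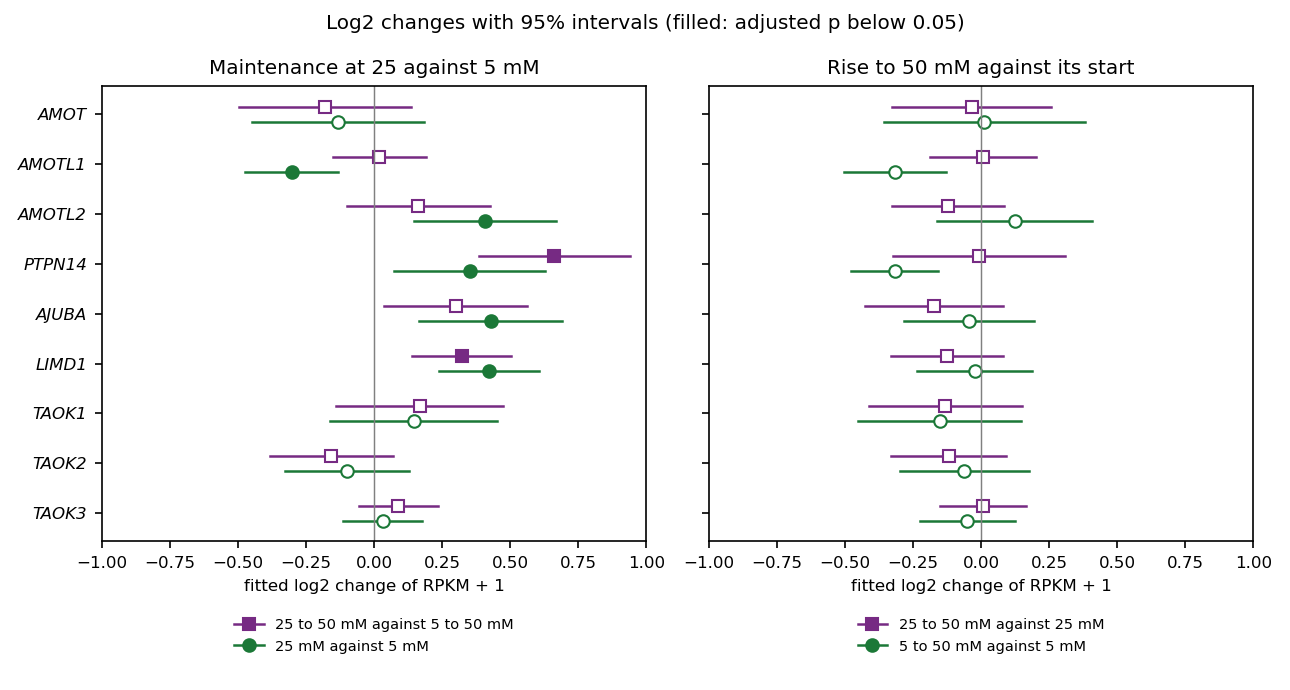
Log2 change in RPKM + 1 of each of the 9 genes, with 95% intervals from limma, between maintenance glucoses (left) and for each rise to 50 mM against its start (right). Positive values mean higher in the first-named group. At maintenance, 25 mM against 5 mM, LIMD1, AJUBA, AMOTL2 and PTPN14 lie above 0 and AMOTL1 below, and PTPN14 reaches 0.66 between the 50 mM groups.

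The same cultures could be set side by side after the rise to 50 mM, where both groups have the same glucose. Their libraries are others than those set side by side above. Both comparisons were fitted on all 8 libraries, so they share the same estimate of spread and their p-values are not independent. The comparison between the 50 mM groups was added after values had been seen. PTPN14 and LIMD1 were higher in cells maintained at 25 mM, and none of the 9 was lower, also at an unadjusted p under 0.05. Across all genes 41.4% of 11941 passed, 2164 higher (18.1%) and 2782 lower (23.3%). With each library centred on its median, 2799 were higher and 2377 lower.

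PTPN14 had 44.0 and 43.1 RPKM in the 25 to 50 mM libraries, against 27.2 and 27.1 RPKM in the 5 to 50 mM libraries. Each pair was tight and the pairs lay far apart, with a log2 change of 0.66 (SE 0.12, fold 1.58, adjusted p = 0.00342, limma). This is the widest difference of the 9 in any comparison, and it passed in 15 of 15 other fits.

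LIMD1 had 11.7 and 12.3 RPKM in the 25 to 50 mM libraries, against 9.57 and 9.20 RPKM in the 5 to 50 mM libraries. Its log2 change was 0.32 (SE 0.08, fold 1.25, adjusted p = 0.0134), and the call held in 12 of 15 other fits. It was lost without 5 to 50 mM replicate 1 (adjusted p = 0.0552), replicate 2 (0.0862) or 25 to 50 mM replicate 3 (0.0795). All 4 libraries of cells maintained at 25 mM were above all 4 of cells maintained at 5 mM for LIMD1 and for PTPN14. This held by a hair for AJUBA, with 34.03 RPKM in 25 to 50 mM replicate 3 and 33.99 RPKM in 5 mM replicate 3. It also held by a hair for AMOTL2, with 48.93 RPKM in 25 to 50 mM replicate 3 and 48.74 RPKM in 5 mM replicate 3. How many of all genes separate in this way was not counted, so the separation cannot be called particular to these genes.

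AJUBA averaged 38.1 ± 5.75 RPKM at 25 to 50 mM and 30.6 ± 1.76 at 5 to 50 mM (SD, n = 2 each), a log2 difference of 0.30 that missed the threshold (adjusted p = 0.0673, limma). AMOTL2 averaged 53.5 ± 6.43 RPKM at 25 to 50 mM and 47.5 ± 0.954 at 5 to 50 mM (adjusted p = 0.286, limma). AMOTL1, which was lower at 25 mM than at 5 mM, had 17.1 ± 0.598 RPKM at 25 to 50 mM and 16.8 ± 0.578 at 5 to 50 mM, a log2 difference of 0.02 with an interval from -0.15 to 0.19. Groups did not overlap for AJUBA, AMOTL2, LIMD1, PTPN14 and TAOK1 on the higher side and for AMOT on the lower, beside 34.8% and 39.9% of all genes tested. The fibroblast marker sum was 2975 to 3288 RPKM in the 25 to 50 mM libraries and 2597 to 2635 RPKM in the 5 to 50 mM libraries. Within it COL1A1 averaged 1490 RPKM at 25 to 50 mM and 1108 at 5 to 50 mM and THY1 506.4 at 25 to 50 mM and 351.0 at 5 to 50 mM, while FAP had 55.1 at 25 to 50 mM and 108.0 at 5 to 50 mM, S100A4 35.3 at 25 to 50 mM and 82.0 at 5 to 50 mM, and PDGFRA 2.82 at 25 to 50 mM and 4.15 at 5 to 50 mM. The epithelial sum was 176.9 to 180.8 RPKM in the 25 to 50 mM libraries and 231.1 to 235.9 RPKM in the 5 to 50 mM libraries. KRT18 made up most of this, at 158.9 RPKM at 25 to 50 mM and 209.9 at 5 to 50 mM, while CDH1, below 1 RPKM, went the other way. The cardiomyocyte sum was 0.818 to 0.905 RPKM in the 25 to 50 mM libraries and 4.03 to 4.23 RPKM in the 5 to 50 mM libraries. Most of this was GATA4, at 0.408 RPKM at 25 to 50 mM and 2.68 at 5 to 50 mM. The part of these markers in the result was not tested.

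Because PTPN14 and AMOTL2 are YAP1/TAZ target genes, the promoters of the members were read for GGAATG, the core letters bound by TEAD factors, on both strands (CATTCC on the other). In RefSeq's promoter table for GRCh38.p14, all of the 9 genes but LIMD1 have an entry, that is 8, with 12 windows of 250 bases before a start site, and 4 of the 12 held the motif. Over all 35116 windows of this length the share was 11.9%. The stretches below are shown because they hold those letters, and capitals mark them; each reads 5′ to 3′ on the minus strand, the strand of its gene.

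PTPN14, chr1:214551785-214551814: cctcccgggccgCATTCCtccccgcccccg

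AMOTL2, chr3:134374499-134374528: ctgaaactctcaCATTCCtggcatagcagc

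AJUBA, chr14:22976884-22976913: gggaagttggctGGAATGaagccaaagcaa

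TAOK3, chr12:118190752-118190781: ttatccttccagGGAATGctattttttcac

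The motif lies 200 bases before the start in PTPN14, 69 in AMOTL2, 59 in AJUBA and 234 in TAOK3. AMOTL2, AJUBA and TAOK3 each have a pair of windows in the table, and the motif is in the one farther downstream. In each case that window overlaps an exon of the gene itself, by GENCODE 29. Of these 4 genes PTPN14, AMOTL2 and AJUBA passed at 25 mM against 5 mM and TAOK3 did not. Of the other genes with a window, AMOTL1 passed as well, in the lower direction, and AMOT, TAOK1 and TAOK2 did not. Over all genes tested 39.1% passed, and a link between the motif and these changes was not tested. Since PTPN14 had the widest change, its whole window, chr1:214551603-214551852 on the minus strand, is given here, again with the motif in capitals.

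PTPN14 window: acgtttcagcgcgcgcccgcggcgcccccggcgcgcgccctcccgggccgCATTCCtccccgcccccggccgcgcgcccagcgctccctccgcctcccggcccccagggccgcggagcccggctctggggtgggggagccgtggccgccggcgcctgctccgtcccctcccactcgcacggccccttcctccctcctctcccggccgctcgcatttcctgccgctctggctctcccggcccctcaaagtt

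TGANTCA, the core letters bound by AP-1 factors, a palindrome apart from N, was in 0 of the 12 windows, beside 6.57% of all windows. A match is a run of letters and not a measured binding site.

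The rise to 50 mM from 5 mM left the 9 genes with small changes. None passed the test at 5 to 50 mM against 5 mM, where 0.329% of 11849 genes passed, and at an unadjusted p under 0.05 there were 2 of the 9, both lower, beside 10.5% of all genes in either direction and 5.36% on that side. With voom on recovered reads, 0 of the 9 passed as well. AMOTL1 had 16.4 and 17.2 RPKM in the 5 to 50 mM libraries, against 21.5 and 20.9 RPKM in the 5 mM libraries. PTPN14 had 27.2 and 27.1 RPKM in the 5 to 50 mM libraries, against 34.4 and 33.8 RPKM in the 5 mM libraries. In both genes the groups did not overlap, as in 26% of all genes on the lower side.

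The log2 change was -0.32 for AMOTL1 (SE 0.07, adjusted p = 0.254, limma) and -0.32 for PTPN14 (SE 0.06, adjusted p = 0.201, limma), each about 0.80 times the 5 mM level. AMOTL2 averaged 47.5 ± 0.954 RPKM at 5 to 50 mM and 43.8 ± 6.97 at 5 mM, and its 5 mM libraries at 38.9 and 48.7 RPKM enclosed both 50 mM values. AJUBA, LIMD1, AMOT and the TAO kinases had log2 changes between -0.15 and 0.01. Without 5 mM replicate 3, PTPN14 (adjusted p = 0.0387) and AMOTL2 (log2 change 0.28, adjusted p = 0.044) passed, and without 5 mM replicate 1, PTPN14 did (adjusted p = 0.0428). In these fits the spread comes from the 5 to 50 mM pair alone and the lone 5 mM library is assumed to share it; 560 and 805 of all genes passed there, in place of 39.

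The rise from 25 mM also left no call among the 9 genes. At 25 to 50 mM against 25 mM none passed, beside 0.00876% of 11422 genes, and none reached an unadjusted p under 0.05, beside 9.25% of all genes, and voom gave 0 of the 9. LIMD1 had 11.7 and 12.3 RPKM in the 25 to 50 mM libraries, against 13.9 and 12.4 RPKM in the 25 mM libraries. It was the only gene of the 9 whose groups did not overlap, as in 29.1% of all genes on the lower side, and its log2 change was -0.12 (adjusted p = 0.638, limma).

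AJUBA had 42.2 and 34.0 RPKM in the 25 to 50 mM libraries, against 41.2 and 44.5 RPKM in the 25 mM libraries, so that 25 to 50 mM replicate 3 alone lay below the rest. Without replicate 2 of that group its log2 change was -0.32 (adjusted p = 0.0382, limma), and with both it was -0.17 (adjusted p = 0.597). The fit without it takes its spread from the 25 mM pair alone, assumed to hold for the lone library, and 777 of all genes passed in it, in place of 1. PTPN14 averaged 43.5 ± 0.599 RPKM at 25 to 50 mM and 44.2 ± 9.30 at 25 mM. AMOTL1 averaged 17.1 ± 0.598 RPKM at 25 to 50 mM and 17.0 ± 1.29 at 25 mM. The median log2 change of the 9 was -0.12, beside -0.035 over all genes tested.

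The difference between the responses from 5 mM and from 25 mM passed the test for none of the 9, beside 0.0251% of 11941 genes, and voom gave 0 of the 9. At an unadjusted p under 0.05 there was 1 of the 9, beside 6.04% of all genes. This was AMOTL1, whose response from 5 mM minus that from 25 mM was -0.32 on the log2 scale (SE 0.10, adjusted p = 0.689, limma). For PTPN14 the difference of responses was -0.31 with an interval from -0.70 to 0.08, and for AMOTL2 it was 0.24 with an interval from -0.13 to 0.62. These intervals hold both 0 and differences as large as those at maintenance. The comparisons with 5 mM and with 25 mM share their control libraries with the comparison at maintenance.

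The 3 angiomotins together held 77.4 and 68.8 RPKM at 25 to 50 mM, 79.3 and 76.1 RPKM at 25 mM, 67.4 and 67.3 RPKM at 5 to 50 mM, and 63.8 and 72.2 RPKM at 5 mM. AMOTL2 made up most of the sum in every library. Its share was 75% and 71.1% at 25 to 50 mM and 73.8% and 75.7% at 25 mM. It was 71.5% and 69.6% at 5 to 50 mM and 60.9% and 67.5% at 5 mM, so that the 5 mM libraries had the lowest shares of all 8. The ratio of AMOTL2 to AMOTL1 was 3.27 and 3.58 at 25 mM, against 1.81 and 2.33 at 5 mM. Between the 50 mM groups the ratios overlapped, at 3.49 and 2.8 at 25 to 50 mM and 2.93 and 2.72 at 5 to 50 mM. The sums overlapped between cultures, since 5 mM replicate 3, at 72.2 RPKM, was above 25 to 50 mM replicate 3, at 68.8 RPKM.

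**Figure D3:**
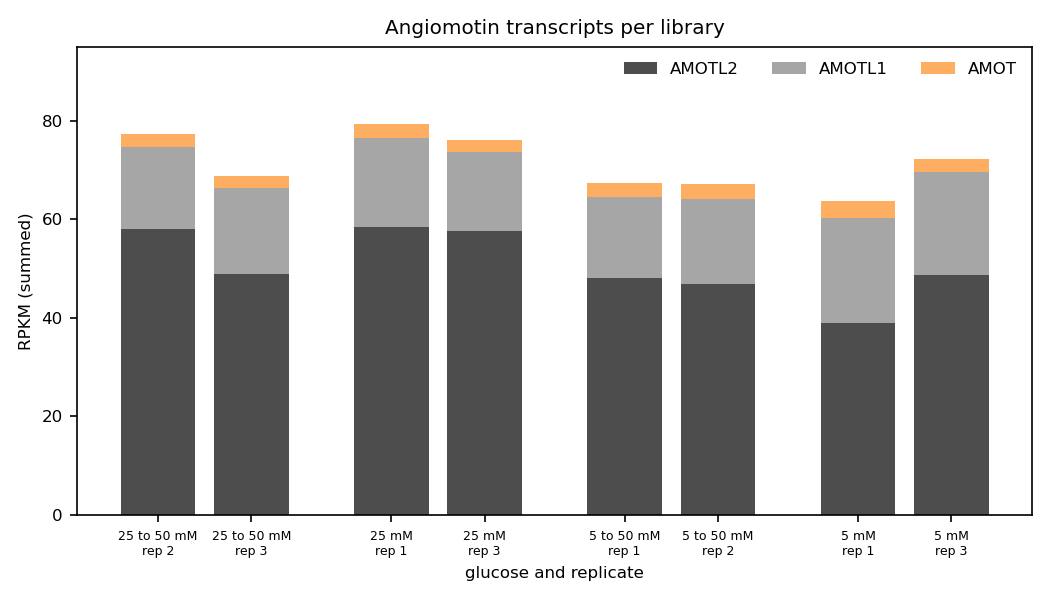
Summed RPKM of the 3 angiomotins in each library, stacked by gene, on a linear axis from 0. AMOTL2 is the largest block in every library, from 60.9% of the sum in 5 mM replicate 1 to 75.7% in 25 mM replicate 3.

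TAOK1, TAOK2 and TAOK3, kinases at the head of the pathway, summed to between 65.75 and 73.85 RPKM in the 8 libraries, and TAOK3 made up 39.0% to 44.3% of the sum. Library pairs of 1 group differed by more than counting error for several genes. PTPN14 had a coefficient of variation of 21% between the 25 mM libraries, where counting alone gives 1.54%, and AMOTL2 had 15.9% between the 5 mM libraries, where counting gives 1.91%. LIMD1 at 5 mM varied by 1.37% and PTPN14 at 5 to 50 mM by 0.211%, less than the 4.59% and 2.11% that counting gives. These counting errors do not include preparation.

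Among 9610 genes averaging 5 RPKM or more, DIP2C, UTRN and STK32B had the profiles nearest to PTPN14 over the 8 libraries, with root mean square differences of 0.0842, 0.0854 and 0.0864 on the log2 scale after centring. PTPN14 was used because its group means range widest, over 0.667 on the log2 scale. UTRN, the dystrophin relative utrophin, averaged 21.2 ± 0.281 RPKM at 25 to 50 mM, 23.3 ± 5.16 at 25 mM, 14.9 ± 0.321 at 5 to 50 mM and 17.4 ± 2.09 at 5 mM. STK32B, a serine/threonine kinase, averaged 29.2 ± 0.419 RPKM at 25 to 50 mM, 30.7 ± 2.61 at 25 mM, 20.2 ± 0.657 at 5 to 50 mM and 24.4 ± 0.348 at 5 mM. DIP2C averaged 8.83 ± 0.790 RPKM at 25 to 50 mM, 9.31 ± 0.891 at 25 mM, 5.29 ± 0.246 at 5 to 50 mM and 6.79 ± 0.00700 at 5 mM. All 3 were chosen for this likeness.

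The Hippo core and its transcription complex give the setting of these genes. Of 18 genes, all tested, 11 were higher and 1 was lower at 25 mM against 5 mM, beside 17% and 22.1% of all genes. Their median log2 change was 0.28. The lower one was WWTR1, the gene of TAZ, at a log2 change of -0.23, while YAP1 was among the higher at 0.26. SAV1, the scaffold of the MST kinases, averaged 29.9 ± 0.594 RPKM at 25 mM and 20.4 ± 0.832 at 5 mM (log2 change 0.53, adjusted p = 0.00173, limma). FRMD6, a FERM protein upstream of the core kinases, averaged 147.3 ± 2.19 RPKM at 25 mM and 103.2 ± 4.13 at 5 mM (0.51). TEAD1, a DNA-binding partner of YAP1, averaged 55.5 ± 2.30 RPKM at 25 mM and 39.2 ± 3.43 at 5 mM (0.49), and WWC2, a relative of the LATS activator KIBRA, was higher by 0.46.

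Between the 50 mM groups 11 of the 18 were higher in cells maintained at 25 mM and 1 was lower, beside 18.1% and 23.3% of all genes. The lower gene was VGLL4, a TEAD-binding repressor, at 6.79 ± 0.921 RPKM at 25 to 50 mM and 10.9 ± 0.501 at 5 to 50 mM. LATS1, the kinase of YAP1, averaged 14.4 ± 0.168 RPKM at 25 to 50 mM and 10.0 ± 0.345 at 5 to 50 mM (log2 change 0.49, adjusted p = 0.00141, limma). NF2, which brings LATS to the membrane, averaged 46.4 ± 2.81 RPKM at 25 to 50 mM and 33.9 ± 1.08 at 5 to 50 mM (0.44). None of the 18 passed in limma after the rise from either starting glucose. At an unadjusted p under 0.05 there was 1 higher from 5 mM, and 1 higher and 1 lower from 25 mM. Over all genes tested, 10.5% from 5 mM and 9.25% from 25 mM reached this in either direction.

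Of 20 YAP1/TAZ target genes other than AMOTL2 and PTPN14, 16 had a log2 change above 0 after the rise from 5 mM and 14 after the rise from 25 mM. Over all genes tested, 40.5% lay above 0 from 5 mM and 36.3% from 25 mM. Of the 20, 4 were higher at 5 to 50 mM against 5 mM and none was lower, also at an unadjusted p under 0.05, beside 0.312% of all genes higher. CTGF, a matrix-associated growth factor, averaged 292.5 ± 13.7 RPKM at 5 to 50 mM and 137.6 ± 5.19 at 5 mM (log2 change 1.08, adjusted p = 0.0269, limma), and ANKRD1, a cardiac ankyrin-repeat protein, averaged 38.1 ± 3.76 RPKM at 5 to 50 mM and 16.3 ± 1.03 at 5 mM. TGFB2 and CYR61 were the others, at log2 changes of 0.65 and 0.49. None of the 20 is called with no filter, without trend, with the replicate block or without 5 to 50 mM replicate 2, where 0 genes passed, and without 5 to 50 mM replicate 1 only 4 of all genes did. At 25 to 50 mM against 25 mM 0 of the 20 passed in limma. At an unadjusted p under 0.05 there were 8 higher and 0 lower from 25 mM, and also 8 higher and 0 lower from 5 mM. Over all genes tested these shares were 2.8% higher and 6.45% lower from 25 mM, and 5.16% higher and 5.36% lower from 5 mM. From 25 mM the log2 change was 0.40 for CTGF, 0.41 for TGFB2, 0.20 for CYR61 and 0.37 for ANKRD1, none of them past the threshold. ANKRD1 was low there, at 3.13 ± 0.410 RPKM at 25 to 50 mM and 2.18 ± 0.273 at 25 mM. FJX1 went the other way by a larger log2 change, -0.52, and did not pass either. AMOTL2 and PTPN14, members of the same signature, had 0.12 and -0.32 at 5 to 50 mM against 5 mM and did not pass.

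At 25 mM against 5 mM, 10 of the 20 targets were higher and 3 lower, beside 17% and 22.1% of all genes, with a median log2 change of 0.29. ANKRD1 averaged 2.18 ± 0.273 RPKM at 25 mM and 16.3 ± 1.03 at 5 mM. NT5E, an ecto-nucleotidase, averaged 61.2 ± 1.61 RPKM at 25 mM and 162.2 ± 5.87 at 5 mM. F3, tissue factor, averaged 108.4 ± 1.82 RPKM at 25 mM and 241.1 ± 4.88 at 5 mM. CCDC80, a matrix protein, was higher at 167.7 ± 5.89 RPKM at 25 mM and 56.4 ± 4.49 at 5 mM. Between the 50 mM groups 8 were higher and 4 lower in cells maintained at 25 mM, beside 18.1% and 23.3% of all genes. Both directions thus occurred among the targets.

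Of proteins that bind angiomotins or set their turnover, 2 of 13 tested genes were higher and 3 lower at 25 mM against 5 mM, near the 17% and 22.1% of all genes. NEDD4L, a ubiquitin ligase of the family that marks angiomotins for degradation, averaged 24.4 ± 0.519 RPKM at 25 mM and 54.5 ± 5.61 at 5 mM (log2 change -1.12, adjusted p = 3.94e-05, limma). MPP5, a polarity scaffold, averaged 27.1 ± 0.598 RPKM at 25 mM and 18.8 ± 2.24 at 5 mM, and ARHGAP17, a GTPase-activating protein that binds angiomotin, averaged 51.4 ± 0.979 at 25 mM and 35.9 ± 0.155 at 5 mM. TNKS2, a tankyrase, was lower by a log2 change of -0.26. Between the 50 mM groups 2 were higher and 2 lower, near the 18.1% and 23.3% of all genes. After either rise 0 passed in limma, also at an unadjusted p under 0.05.

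Of 12 junction genes tested, 4 were higher and 4 lower at 25 mM against 5 mM, beside the same shares of all genes, 17% and 22.1%. CDH11, a mesenchymal cadherin, averaged 0.867 ± 0.050 RPKM at 25 mM and 5.92 ± 0.0642 at 5 mM, and F11R, a tight-junction adhesion molecule, averaged 6.45 ± 0.763 at 25 mM and 10.2 ± 1.26 at 5 mM. TJP1, the scaffold ZO-1, averaged 18.4 ± 1.19 RPKM at 25 mM and 12.9 ± 1.43 at 5 mM, and CTNND1, the catenin bound to the cadherin tail, averaged 106.5 ± 3.51 at 25 mM and 81.5 ± 7.17 at 5 mM. CDH2, N-cadherin, averaged 80.3 ± 3.10 RPKM at 5 to 50 mM and 54.1 ± 2.53 at 5 mM, just short of the threshold (log2 change 0.56, adjusted p = 0.0572, limma).

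Of 6 zyxin-family and other LIM-domain relatives of AJUBA and LIMD1, 2 were higher and 2 lower at 25 mM against 5 mM, beside 17% and 22.1% of all genes. TRIP6 was higher at a log2 change of 0.36 and ZYX at 0.19, and FBLIM1 and LIMS1 were lower. FBLIM1, which links filamin to integrin sites, averaged 14.5 ± 0.228 RPKM at 25 mM and 25.8 ± 2.65 at 5 mM. LIMS1, the integrin-linked scaffold PINCH1, averaged 28.2 ± 3.12 RPKM at 25 mM and 36.6 ± 4.26 at 5 mM. Between the 50 mM groups FBLIM1 and LIMS1 were lower in cells maintained at 25 mM, and in limma none of the 6 was higher, beside 2 higher at an unadjusted p under 0.05. Over all genes tested 18.1% passed higher and 23.3% lower, and 22.5% were higher at an unadjusted p under 0.05.

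Among 4 phosphatases with a FERM domain like that of PTPN14, PTPN13 passed, at 10.9 ± 0.167 RPKM at 25 mM and 7.92 ± 0.876 at 5 mM (log2 change 0.42, adjusted p = 0.00817, limma), and again between the 50 mM groups (0.39). Over all genes tested 17% passed higher at 25 mM against 5 mM, and 18.1% between the 50 mM groups. STE20-type kinases and the STRIPAK phosphatase complex, which include relatives of the TAO kinases, had 3 of 18 higher and 7 lower at 25 mM against 5 mM. Over all genes tested 17% were higher and 22.1% lower. STRIP2 averaged 9.71 ± 0.861 RPKM at 25 mM and 20.7 ± 0.268 at 5 mM, and MAP4K4, a kinase that acts beside the MST kinases on LATS, averaged 84.2 ± 0.0385 at 25 mM and 118.0 ± 7.39 at 5 mM. TNIK and STK26 were lower by log2 changes of -0.98 and -0.87. None of the 18 passed in limma after either rise, and at an unadjusted p under 0.05 there were 2 lower from 5 mM and 0 from 25 mM. Over all genes tested 5.36% were lower from 5 mM at that limit.

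**Figure D4:**
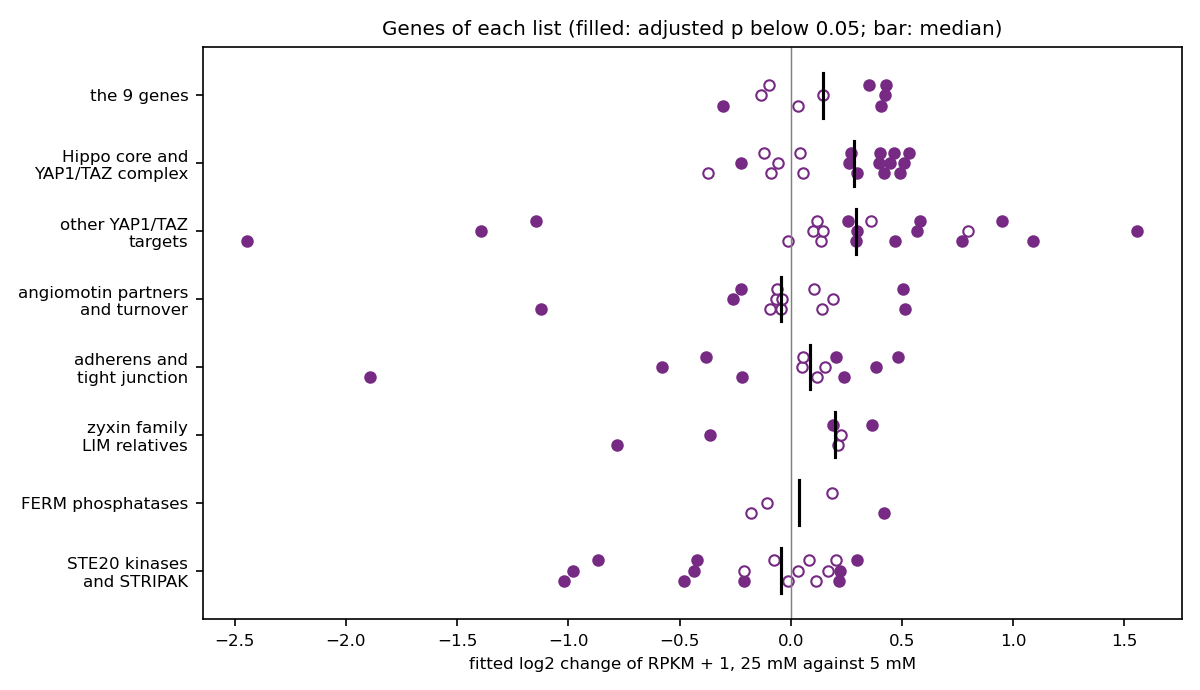
Log2 change in RPKM + 1, 25 mM against 5 mM, of the 9 genes and of the tested genes of each pathway list; each point is a gene, and filled points passed the test. The Hippo core has 11 of 18 filled points above 0 and 1 below, while junction genes have 4 and 4. Over all genes tested 17% passed higher and 22.1% lower.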

How the data were processed

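The authors deposited RPKM values for 8 AC16 libraries in 2 tables, 1 per starting glucose, with 1 column per library. The submitters' processing notes name STAR and hg38; the counting tool and annotation are not given in the sources used here. Whole reads could be recovered from the RPKM values, within 0.01 reads, for 100.0% of the 16297 genes above 0. The recovered gene lengths were multiples of 3 for 83.1% of 9954 genes with at least 100 reads, and a median 0.992 times the union of coding exons in GENCODE 29, so levels describe coding length and reads in UTRs were not counted as far as lengths show.

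Values were tested as log2(RPKM + 1), which understates changes of low genes, by limma's two-sided moderated test with trend (limma 3.58.1, R 4.3.3). A gene entered if 2 or more fitted libraries had 1 RPKM or more. P-values were adjusted by Benjamini-Hochberg across every gene tested, and the threshold was 0.05. All 9 genes passed this filter. The 2 rises were fitted on their own 4 libraries, and the other comparisons on all 8, across tables that may have been made separately. Members and lists were chosen with earlier results of these data known. The 25 to 50 mM against 5 to 50 mM comparison was added after values were seen. Named from each list were up to 4 called genes with the largest change, or else the gene with the smallest adjusted p, and some of these are not printed. Alternatives were other pseudocounts and filters, median centring, no trend, voom on recovered reads, a joint fit, a replicate block and leaving out each library.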

Additional observations from a re-analysis of the deposited data

How the results depend on the processing

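Between 25 mM and 5 mM, 4671 genes and 5 of the 9 passed. Leaving out 1 library gave 3024 to 4769 genes and 2 to 4 of the 9. At 25 to 50 mM against 5 to 50 mM, 4946 genes and 2 of the 9 passed, and leaving out 1 library gave 3177 to 5733 genes and 1 to 3 of the 9. PTPN14 at 25 mM against 5 mM missed the threshold with a pseudocount of 0.1 (adjusted p = 0.0503), with no filter (0.0855), without trend (0.0667) and with a mean of at least 5 RPKM (0.0502). AJUBA passed between the 50 mM groups with median centring (0.0213).

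After the rise from 5 mM the 39 calls became 0 with no filter, 0 without trend, 60 with median centring, 130 in a joint fit and 0 to 805 with 1 library left out, when 0 to 2 of the 9 passed. From 25 mM the 1 call became 0 with no filter, 0 without trend, 4 with median centring, 7 with voom, 4 in a joint fit and 0 to 777 with 1 library left out, when 0 to 1 of the 9 passed. The 3 calls of the difference of responses became 0 with a pseudocount of 0.1, 1 with no filter, 1 without trend, 0 at a mean of at least 5 RPKM, 0 with voom and 0 to 6 with 1 library left out. The cause was not tested.

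Replicate numbers were shared by 25 mM and 5 mM (2 numbers) and by each rise (1 number). Replicate 1 deviated together at 25 mM and 5 mM (correlation 0.302 over 9611 genes), but nothing in the labels says that a number marks a shared culture. With the replicate block over all 8 libraries, 1 of the 9 passed in limma at 25 mM against 5 mM, LIMD1. AJUBA, AMOTL1, AMOTL2 and PTPN14 had adjusted p between 0.0536 and 0.0654. Over all genes, 3456 to 4965 passed in this comparison across the alternative settings that kept every library, the block among them. With the same block 0 genes passed after either rise or in the difference of responses.

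The sign of small changes was not stable. With the block, AMOT turned to -0.107 from 5 mM and to -0.0558 in the difference of responses, and PTPN14 to 0.0345 from 25 mM. With median centring AMOT and PTPN14 turned to 0.0142 and 0.0431 from 25 mM. With 1 library left out, the log2 change from 5 mM ranged over -0.151 to 0.176 for AMOT, -0.0360 to 0.283 for AMOTL2, -0.147 to 0.0588 for AJUBA, -0.0494 to 0.00282 for LIMD1 and -0.162 to 0.0392 for TAOK2. From 25 mM it ranged over -0.133 to 0.0636 for AMOT, -0.0661 to 0.0804 for AMOTL1, -0.217 to 0.205 for PTPN14, -0.296 to 0.0351 for TAOK1 and -0.0498 to 0.0629 for TAOK3. The difference of responses ranged over -0.116 to 0.211 for AMOT, -0.0211 to 0.280 for AJUBA, -0.187 to 0.144 for TAOK1 and -0.0544 to 0.169 for TAOK2. At 25 mM against 5 mM it was -0.297 to 0.0308 for AMOT, -0.0197 to 0.312 for TAOK1 and -0.20 to 0.00121 for TAOK2, and between the 50 mM groups -0.0145 to 0.0530 for AMOTL1. AMOT was not tested at a mean of at least 5 RPKM. With 2 libraries a group, changes near the replicate spread could not be resolved.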
